A study of Mus musculus with 12 samples.

Results

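The Hox genes of LSKs (Lin- Sca1+ c-Kit+ cells of the bone marrow, which hold the hematopoietic stem cells and multipotent progenitors) were examined in wild-type and Tespa1-deficient mice. Members were all protein-coding genes of the deposited table named Hox with a cluster letter a to d and a number, 39 of 53465 genes: 11 in the HoxA cluster on chromosome 6, 10 in HoxB on chromosome 11, 9 in HoxC on chromosome 15 and 9 in HoxD on chromosome 2. Bulk RNA-seq of 12 libraries fell into 4 groups of 3: untreated Tespa1+/+ mice, untreated Tespa1-/- mice, and both genotypes at day 9 after a single intraperitoneal injection of 150 mg/kg 5-fluorouracil (5-FU), a drug that kills cycling blood cells. The knockout is the germline B6.129S-Tespa1tm1Smoc allele in every cell, backcrossed to C57BL/6. Wild-type mice were littermates per the labels, and the mice of the study's experiments were males aged 8 to 10 weeks. The labels call the cells both LSKs and hematopoietic stem cells, and do not say whether mice were pooled for a library. If replicates came from one preparation, the p-values measure technical spread only.

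Hox genes encode transcription factors that bind DNA through a homeodomain, and they sit in clusters whose gene order follows the order of their expression along the embryo. In blood-forming cells, members from the middle of HoxA and the front of HoxB, such as Hoxa9 and Hoxb4, are known as drivers of stem cell self-renewal, and the group falls as cells mature. Hox proteins bind together with MEIS and PBX proteins of the TALE class. MLL with menin keeps Hox chromatin active, and Polycomb complexes silence it.

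The homeobox, the DNA that encodes the homeodomain, shows how far the members differ and so how well reads tell them apart. Over the 180 bases of the homeobox (GENCODE M21 transcripts) the tested members ranged from 56.1% identity (Hoxa2 and Hoxa6) to 93.9% (Hoxa3 and Hoxb3). No stretch of 50 bases of Hoxa5 occurred in a transcript of another gene, and 0.364% of those of Hoxa6 occurred in Hoxb4. Hoxa9 shared 0.646% of its stretches, all of them with Mir196b, which lies within it.

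The 3 members called lower (adjusted p below 0.05) in Tespa1-/- LSKs after 5-FU, Hoxa5, Hoxa6 and Hoxa9, lie side by side with Hoxa7 on the minus strand of chromosome 6. The bases before their RefSeq starts (GRCm38.p6, 5′ to 3′ on the minus strand) are shown because these genes moved in one direction. They cover 250 bases at Hoxa5, chr6:52204588-52204837, 200 bases at Hoxa6, chr6:52208723-52208922, and 250 bases at Hoxa9, chr6:52227371-52227620, and lie in no annotated exon (GENCODE M21). Those of Hoxa5 and Hoxa6 lie within the longer span of Hoxa3, and that of Hoxa9 within the span of Hoxa9 itself, whose longest transcript starts further upstream. Motif matches would stand in capitals.
Hoxa5: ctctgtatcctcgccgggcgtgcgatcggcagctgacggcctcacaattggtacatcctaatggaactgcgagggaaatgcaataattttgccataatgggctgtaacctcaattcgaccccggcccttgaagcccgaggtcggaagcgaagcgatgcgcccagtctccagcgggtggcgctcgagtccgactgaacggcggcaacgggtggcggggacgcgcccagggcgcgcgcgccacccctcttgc
Hoxa6: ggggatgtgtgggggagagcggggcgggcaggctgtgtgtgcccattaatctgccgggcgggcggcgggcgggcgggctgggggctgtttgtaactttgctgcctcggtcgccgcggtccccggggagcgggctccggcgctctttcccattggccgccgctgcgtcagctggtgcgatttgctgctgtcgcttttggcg
Hoxa9: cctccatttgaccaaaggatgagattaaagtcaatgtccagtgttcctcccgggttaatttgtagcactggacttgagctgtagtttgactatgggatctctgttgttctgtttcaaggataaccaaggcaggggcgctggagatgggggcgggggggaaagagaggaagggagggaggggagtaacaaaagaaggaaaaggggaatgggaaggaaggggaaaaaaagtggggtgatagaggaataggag
Both strands were searched for the PBX-HOX composite TGATTNAT, the MEIS motif TGACAG, the E-box CACGTG and the TATA box TATAAA, motifs that do not overlap in their letters, and these windows held no match. Among 32851 promoters, 2.82%, 15.9%, 6.02% and 12.4% held each motif in the 250 bases before the start. Of the 22 members with a promoter in the table, 2 held the PBX-HOX motif (Hoxa2 and Hoxd11), 2 the MEIS motif (Hoxa2 and Hoxa3), 4 the E-box and 4 the TATA box. Base composition differed between the windows, at 63.6% G and C for Hoxa5, 71.0% for Hoxa6 and 49.6% for Hoxa9.

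Tespa1 itself checked the labels. Untreated, Tespa1 stood at 46.8 ± 3.95 CPM (the count scaled by library size, SD, n = 3) in Tespa1+/+ LSKs and 34.8 ± 0.225 in Tespa1-/- LSKs. After 5-FU it stood at 53.1 ± 5.34 and 19.2 ± 1.76. RNA counted on the gene was therefore lower in every knockout library but not lost, and the deleted part of the gene is not given in the sources used here. The untreated difference was a log2 fold change of -0.42 with an adjusted p of 0.0316 in edgeR's quasi-likelihood test, lost in 5 of 6 fits that left out a library, and that after 5-FU was -1.47 (adjusted p = 9.38e-05). LSK markers were present in all groups: the summed level of 10 markers, among them Kit and Ly6a (Sca1), was 1640 to 1710 CPM in Tespa1+/+ and 1380 to 1440 in Tespa1-/- without treatment, against 1450 to 1500 and 893 to 995 CPM after the drug. The Tespa1-/- libraries after 5-FU stood apart, with 10 neutrophil markers at 1050 to 1060 CPM against 0.769 to 8.40 in the other groups, and 8 erythroid markers at 363 to 383 against 20.4 to 56.1. Libraries held 22118154 to 28275079 counts on genes, so 3 counts, above which a gene was taken as detected, equalled 0.109 to 0.136 CPM. In bulk RNA, fewer cells of a type and less RNA per cell cannot be told apart.

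HoxA carried most of the Hox counts of LSKs, without correction for gene length. It made up 81.0% to 96.0% of the members' counts in a library, and HoxB 3.92% to 17.4%. 11 members exceeded 3 counts in all 12 libraries: Hoxa2, Hoxa3, Hoxa4, Hoxa5, Hoxa6, Hoxa7, Hoxa9 and Hoxa10 of HoxA, and Hoxb2, Hoxb3 and Hoxb4 of HoxB. Another 18 exceeded it in some libraries only, with at most 24 counts. The remaining 10 stayed at or below 3 counts throughout, and Hoxb13, Hoxc4, Hoxc13, Hoxd1 and Hoxd4 had 0 counts in every library, which allows a level of up to 0.136 CPM. No HoxC member passed 14 counts in a library and no HoxD member 8. The back of HoxA was near the limit as well, with Hoxa11 at 0 to 20 counts and Hoxa13 at 0 to 15.

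**Figure D1:**
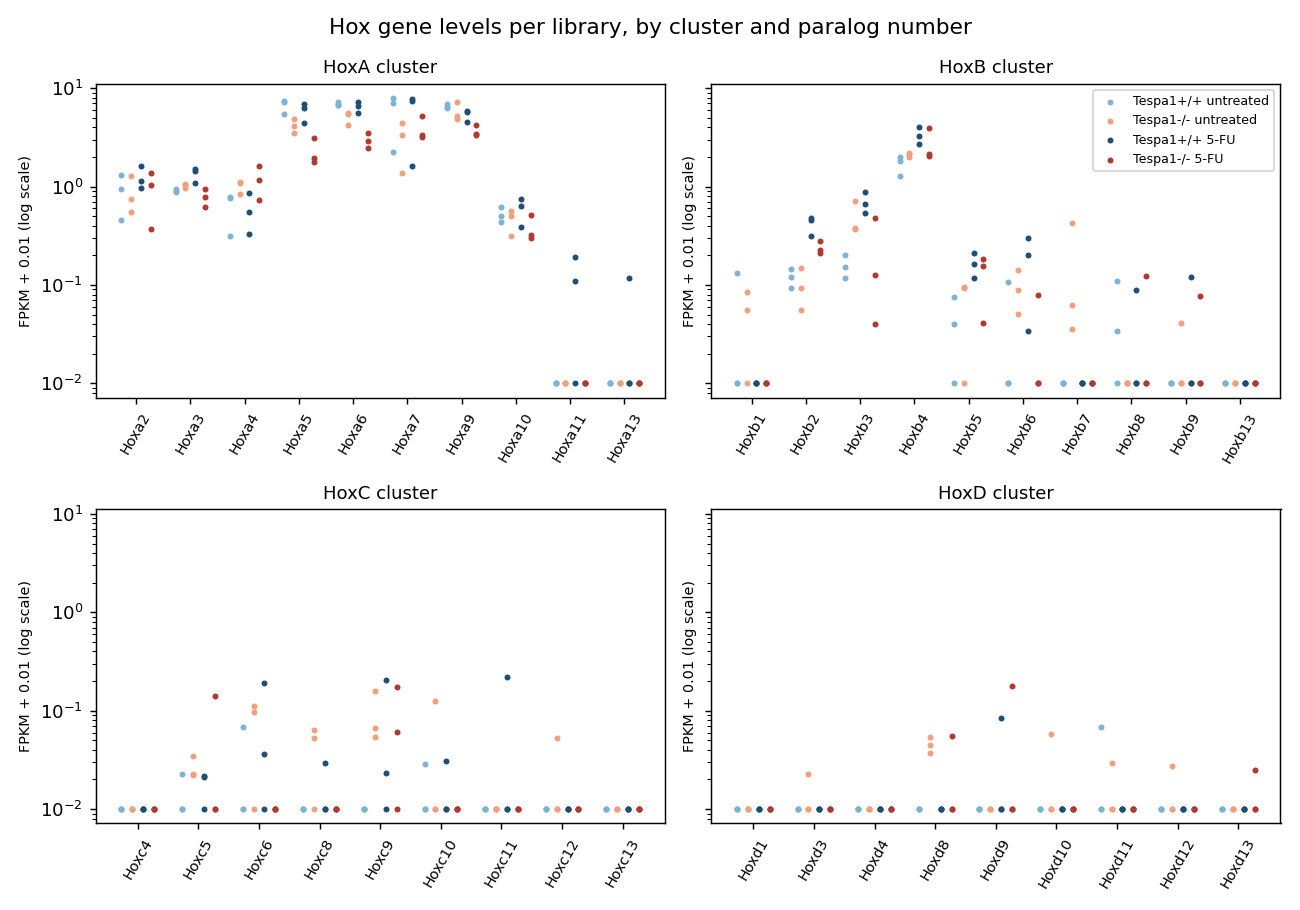
FPKM + 0.01 on a log axis for the Hox genes (1 not drawn), by cluster and paralog number, with 1 point per library and 4 groups of 3. Hoxa5, Hoxa6, Hoxa7 and Hoxa9 have the highest group means except in Tespa1-/- after 5-FU, where Hoxb4 lies above Hoxa5. Hoxb4 leads HoxB, and HoxC and HoxD genes lie at or near 0.

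Between genes, levels were compared per length, with the deposited FPKM. In untreated Tespa1+/+ LSKs, Hoxa6 stood at 6.87 ± 0.258 FPKM, Hoxa5 at 6.71 ± 1.09, Hoxa9 at 6.53 ± 0.296 and Hoxa7 at 5.75 ± 3.09 (SD, n = 3), and the ranges of these neighbours overlapped. Hoxb4 at 1.69 ± 0.363 FPKM lay below all of them, and Hoxa3 at 0.902 ± 0.0315 below Hoxb4. The length behind FPKM differed from the annotated exon length for 22 members, such as Hoxa7 (5552 against 2876 bases) and Hoxa9 (7323 against 5580). It was the same for 12 members and could not be derived for 5. Per annotated kilobase the order at the top became Hoxa7, Hoxa9, Hoxa6 and Hoxa5, with 11.3, 8.75, 7.01 and 6.85 CPM per kilobase, and Hoxb4 came next at 1.73. In Tespa1-/- LSKs after 5-FU, the FPKM of Hoxa7 (3.90 ± 1.14), Hoxa9 (3.64 ± 0.480), Hoxa6 (2.98 ± 0.526), Hoxb4 (2.70 ± 1.09) and Hoxa5 (2.29 ± 0.744) overlapped from each to the next. The range of Hoxb4 also overlapped that of Hoxa7 in untreated Tespa1-/- and in Tespa1+/+ after 5-FU. Among Hoxa5, Hoxa6, Hoxa7, Hoxa9 and Hoxb4, Hoxa7 had the widest ratio of highest to lowest library in every group but Tespa1-/- after 5-FU, where it was 1.65 against 1.77 for Hoxa5 and 1.96 for Hoxb4. Hoxa7 ranged from 12.5 to 44.9 CPM in untreated Tespa1+/+ and from 8.68 to 42.1 CPM in Tespa1+/+ after 5-FU, and 20.4% of its exonic bases lie opposite the antisense gene Hoxaas3.

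Loss of Tespa1 in untreated LSKs was compared first. Of 12 members tested, 0 were called in either direction by edgeR (adjusted p below 0.05), where 1.64% of 17055 genes were higher, 3.59% lower and 5.23% either. At an unadjusted p under 0.05, 1 member was higher, Hoxb3, and 1 lower, Hoxa5, where 7.97% and 10.5% of all genes were (18.5% either way). Both also passed a fold change above 1.5, as 6.74% of all genes did. DESeq2 called Hoxb3 higher and Hoxa5 lower, beside 3.1% and 5.27% of all genes (8.37% either way). The median log2 fold change of the tested members was -0.14, beside 0.0071 over all genes.

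Hoxa5, a mid-cluster factor, had 14.5, 13.7 and 10.4 CPM in untreated Tespa1+/+ and 7.77, 9.22 and 6.69 CPM in untreated Tespa1-/- LSKs. The groups did not overlap (log2 fold change -0.69 ± 0.20 SE, adjusted p = 0.0922 in edgeR and 0.0341 in DESeq2). Hoxb3 (ENSMUSG00000048763, chr11:96323326-96347930, plus strand) was low in untreated Tespa1+/+, at 0.875, 0.668 and 1.18 CPM, and stood at 2.24, 4.26 and 2.18 CPM in untreated Tespa1-/-. Its log2 fold change was 1.68 ± 0.43, with an adjusted p of 0.0661 in edgeR and 0.0173 in DESeq2. Hoxa6 also lay lower without overlap (5.92 to 6.46 against 3.69 to 4.88 CPM), and Hoxa3, Hoxa4 and Hoxb4 higher without overlap. These are 4 of 12 members apart in the higher direction and 2 in the lower, where 11.4% and 14.1% of all genes were (25.5% in either direction). Hoxa9 overlapped, with 51.8, 46.8 and 47.9 CPM against 36.0, 37.9 and 53.1 CPM. Hoxb4 stood at 4.78, 5.16 and 3.35 against 5.45, 5.67 and 5.20 CPM. In these libraries 3 of 10 LSK markers were called lower in Tespa1-/-, and 3 of 7 B cell markers (summed level 42.2 to 48.2 against 65.5 to 77.0 CPM). Higher sums were those of erythroid markers (41.8 to 52.0 against 20.4 to 25.5 CPM, 1 of 8 called), neutrophil markers (4.70 to 5.86 against 0.769 to 1.60, 0 of 4), megakaryocyte markers (75.0 to 79.9 against 44.3 to 52.0, 1 of 5) and monocyte markers (367 to 380 against 240 to 257, 2 of 7). Their part in the Hox values was not tested.

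After 5-FU, Tespa1-/- LSKs had less RNA of Hoxa5, Hoxa6 and Hoxa9 than Tespa1+/+ LSKs. These 3 of 12 members tested were called lower in edgeR, where 5.78% of 17239 genes were (13.1% in either direction), and DESeq2 called 3 lower (7.88% of genes). No member was called higher (0 of 12, beside 7.34% of all genes), nor was one in DESeq2 (9.44%) or at an unadjusted p below 0.05 (14.2%). At that unadjusted p, 5 members were lower, beside 12.6% of all genes (26.7% either way), Hoxa3 and Hoxb3 in addition to the 3 called. Hoxa4, which lies within the span of Hoxa3 and next to Hoxa5, was the 1 member with a higher estimate in Tespa1-/-. It had 1.32, 0.847 and 0.494 CPM in Tespa1+/+ and 2.54, 1.16 and 1.85 CPM in Tespa1-/- after 5-FU, and the groups overlapped (log2 fold change 1.05 ± 0.56, adjusted p = 0.272). The median log2 fold change of the 12 was -0.58 beside -0.0097 over all genes, but Hoxb3 and Hoxb5 passed the filter on low counts through their Tespa1+/+ libraries. 6 members lay wholly below Tespa1+/+, where 15.9% of all genes did (33.1% lay apart in either direction).

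Hoxa5 (ENSMUSG00000038253, chr6:52201754-52204587) had 8.09, 11.6 and 12.7 CPM in Tespa1+/+ and 3.63, 5.89 and 3.33 CPM in Tespa1-/- LSKs after 5-FU. Every knockout library lay below every wild-type one (log2 fold change -1.33 ± 0.29, adjusted p = 0.0150). Hoxa6 (ENSMUSG00000043219, chr6:52206288-52208722), its neighbour, had 6.14, 4.73 and 5.56 CPM in Tespa1+/+ and 2.54, 3.08 and 2.16 CPM in Tespa1-/-. The groups did not overlap here either (-1.08 ± 0.28, adjusted p = 0.0321). Hoxa9 (ENSMUSG00000038227, chr6:52223100-52231089), a leukemia-associated self-renewal factor, had 42.1, 41.2 and 32.3 CPM in Tespa1+/+ and 24.1, 30.6 and 25.0 CPM in Tespa1-/-. The difference was smaller than for the other 2, without overlap (-0.54 ± 0.15, adjusted p = 0.0403).

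These calls rested on few libraries. Those of Hoxa6 and Hoxa9 were also lost with no filter on low counts (adjusted p = 0.0795 and 0.0542) and with the replicate number as a block (0.0725 and 0.0519). With 1 library left out, Hoxa6 lost its call in all 6 fits (adjusted p from 0.0520 to 0.101). Hoxa5 lost it without Tespa1-/- 5-FU library 1 or 3 or Tespa1+/+ 5-FU library 2 or 3, with an adjusted p of 0.0120 to 0.0637 over the 6 fits. Hoxa9 lost it without Tespa1-/- 5-FU library 1 or 3 or Tespa1+/+ 5-FU library 1 or 2, with 0.0277 to 0.132. Log2 fold changes stayed between -1.63 and -1.18 for Hoxa5, -1.22 and -0.96 for Hoxa6, and -0.65 and -0.47 for Hoxa9. In the same libraries, 10 of 10 neutrophil and 8 of 8 erythroid markers were called higher and 7 of 10 LSK markers lower in Tespa1-/-. Camp, Cd177, Fcnb and Retnlg of the neutrophil list had at most 3 counts in Tespa1+/+ after 5-FU. Monocyte markers summed to 432 to 479 CPM against 209 to 216, megakaryocyte markers to 249 to 261 against 172 to 194, B cell markers to 325 to 343 against 287 to 297 and T cell markers to 4.77 to 9.36 against 3.00 to 4.04. Called higher were 2 of 8 monocyte, 2 of 6 megakaryocyte, 2 of 8 B cell and 1 of 5 T cell markers, and 0 were lower. Their part in the Hox differences was not tested.

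Hoxb3 and Hoxa3 lay lower in Tespa1-/- LSKs after 5-FU without passing the test. Hoxb3 had 5.17, 3.85 and 3.09 CPM in Tespa1+/+ and 0.181, 0.693 and 2.79 CPM in Tespa1-/-. One knockout library was far above the other 2, and the log2 fold change of -1.74 ± 0.75 had an adjusted p of 0.173. Without that library, Tespa1-/- 5-FU library 3, it was -3.20 (adjusted p = 0.0174). That fit was singled out after the values were seen. Hoxb3 also passed the filter on low counts through its Tespa1+/+ libraries, so the fit is not read as support. Hoxa3 stood at 9.10, 6.89 and 9.55 against 5.04, 3.93 and 5.99 CPM (-0.77 ± 0.25, adjusted p = 0.0731). Hoxb4 overlapped between the genotypes, at 8.21, 6.77 and 10.2 CPM in Tespa1+/+ and 10.1, 5.43 and 5.18 CPM in Tespa1-/- (-0.27 ± 0.30, adjusted p = 0.628).

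**Figure D2:**
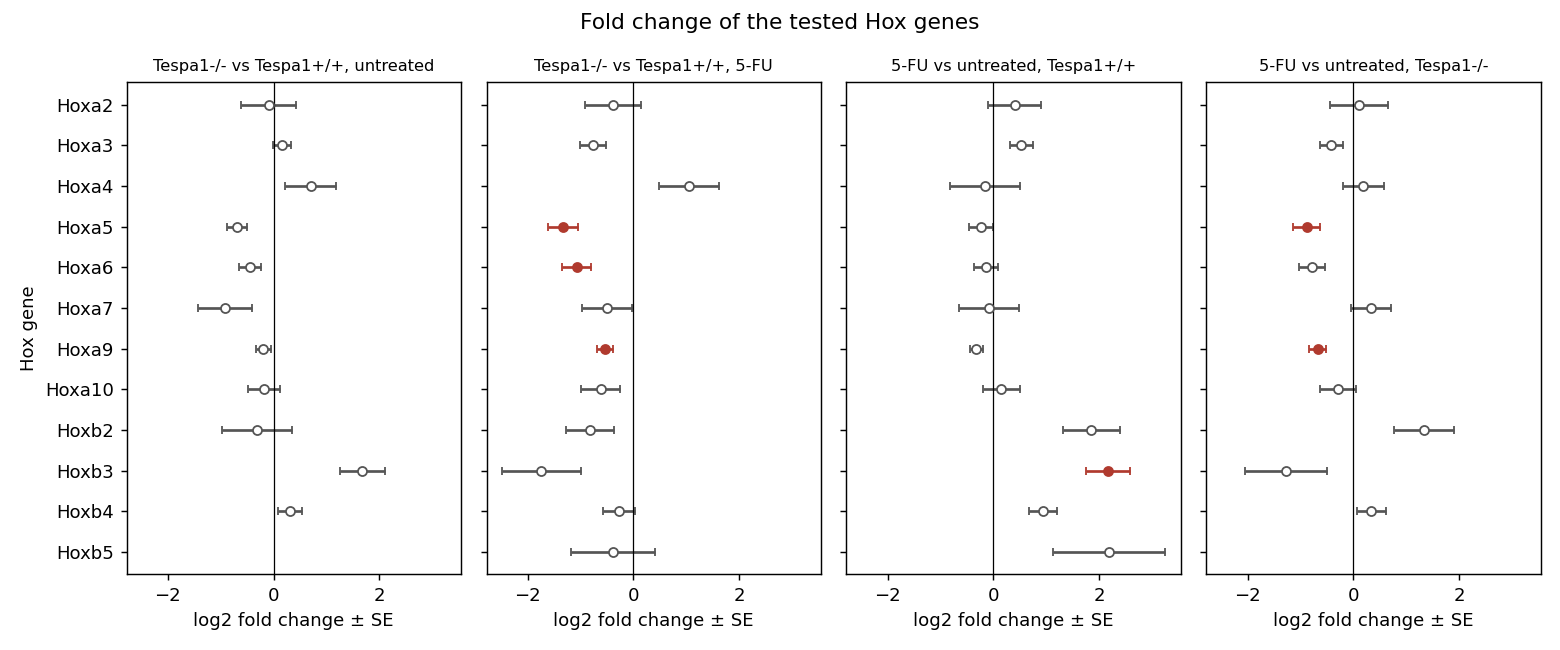
Log2 fold change ± SE (edgeR) of the tested Hox genes (1 not drawn) in the 4 two-group comparisons, with filled red points for an adjusted p below 0.05. Hoxa5, Hoxa6 and Hoxa9 are filled in the comparison of genotypes after 5-FU, Hoxb3 in the 5-FU change of Tespa1+/+, and Hoxa5 and Hoxa9 in that of Tespa1-/-.

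The 5-FU change within Tespa1+/+ LSKs was compared next. Hoxb3 was called higher, 1 of 12 members tested (3.77% of 17002 genes were higher), and 0 were called lower (4.18% of genes, and 7.95% either way), while 5 members in all had an unadjusted p under 0.05, as 21.5% of all genes did. With a fold change above 1.5 as well, 3 did, beside 9.88% of all genes. DESeq2 called 3 higher and 0 lower (5.9% and 6.23% of genes). The untreated and 5-FU groups here also served in the comparisons of genotypes, so the comparisons share libraries. Hoxb3 rose from 0.875, 0.668 and 1.18 CPM to the 5.17, 3.85 and 3.09 CPM given above (log2 fold change 2.17 ± 0.41, adjusted p = 0.0124), with no overlap. Without Tespa1+/+ 5-FU library 1 its adjusted p was 0.0650, and with all 12 libraries in one fit it was 0.0602, while Hoxb2 (0.0361) and Hoxb4 (0.0482) were called there. Hoxb4 (ENSMUSG00000038692, chr11:96318267-96321638) lay higher in all 3 libraries after 5-FU, at 6.77 to 10.2 against 3.35 to 5.16 CPM (0.94 ± 0.27, adjusted p = 0.0687 in edgeR and 0.0306 in DESeq2). Hoxb2 had 0.657, 0.534 and 0.407 CPM untreated and 2.22, 1.42 and 2.10 CPM after 5-FU (1.85 ± 0.54, adjusted p = 0.0724). With Hoxa3 and Hoxb5, 5 of 12 members lay wholly higher (13.2% of all genes did). Hoxb2 and Hoxb5 entered the test through their levels after 5-FU. The test of Hoxb2 in this comparison and its call by DESeq2 are therefore not read. Hoxa9 lay wholly lower, from 46.8 to 51.8 down to 32.3 to 42.1 CPM (-0.32 ± 0.12, adjusted p = 0.154), the 1 member to do so where 15.5% of genes did (28.7% lay apart in either direction). The median over the members was 0.28, beside 0.01 over all genes.

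HoxB values of this comparison carry a limit of position. The antisense gene Hoxb3os lies opposite 52.9% of the exonic bases of Hoxb3 and 27.3% of those of Hoxb2, and whether the counting used strand is not given in the sources used here. Hoxb3os had 0.182, 0 and 0 CPM in untreated Tespa1+/+ and 1.40, 0.770 and 0.741 CPM after 5-FU, and 0.0437 to 0.483 and 0.855 to 1.89 CPM in Tespa1-/-. Both genotypes lay higher after 5-FU without overlap, and Hoxb3os passed the filter on low counts through its 5-FU libraries, so no test of it is read. No exonic base of Hoxb4, Hoxa5 or Hoxa6 overlaps an exon of another gene, though Hoxa5 and Hoxa6 lie within the spans of Hoxa3, Gm28308 and Hoxaas3. Among the markers, 7 of 7 B cell markers tested and 4 of 5 megakaryocyte markers were called higher after 5-FU in Tespa1+/+, with summed levels of 287 to 297 against 65.5 to 77.0 CPM and 172 to 194 against 44.3 to 52.0 CPM. Of the others, 3 of 7 erythroid markers (sum 42.1 to 56.1 against 20.4 to 25.5 CPM) and 1 of 5 neutrophil markers (3.66 to 8.40 against 0.769 to 1.60) were called higher, and of the 10 LSK markers 3 were higher and 2 lower (1450 to 1500 against 1640 to 1710). No T cell or monocyte marker was called (0 of 2 and 0 of 7). Their part in the Hox changes was not tested.

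Within Tespa1-/- LSKs, 5-FU was followed by lower Hoxa9 and Hoxa5. These were 2 of 12 members called lower (8.64% of 17228 genes were) and 0 were called higher (10.7% of genes, and 19.4% either way), with 4 members in all at an unadjusted p below 0.05, a share near the 32.3% of all genes. DESeq2 called 2 lower and 0 higher (10.3% and 12.2% of genes). Hoxa9 fell from 36.0, 37.9 and 53.1 CPM untreated to 24.1, 30.6 and 25.0 CPM after 5-FU (log2 fold change -0.68 ± 0.16, adjusted p = 0.0188). Hoxa5 fell from 7.77, 9.22 and 6.69 CPM to 3.63, 5.89 and 3.33 CPM (-0.88 ± 0.26, adjusted p = 0.0451). Neither pair of groups overlapped. Hoxa6 went from 3.69, 4.88 and 4.81 to 2.54, 3.08 and 2.16 CPM without passing (-0.78 ± 0.25, adjusted p = 0.0624). Hoxa3 made the fourth member wholly lower, where 18.8% of all genes were, and Hoxb2 alone was wholly higher, where 19.8% were. In either direction 38.6% of all genes lay apart. Hoxb2 passed the filter on low counts through its 5-FU libraries, so its test here is not read. The call of Hoxa9 was lost without Tespa1-/- 5-FU library 1 or 3 or untreated Tespa1-/- library 3 (adjusted p up to 0.0686). That of Hoxa5 was lost in 5 of 6 such fits, all but the one without Tespa1-/- 5-FU library 2 (0.0134 to 0.158). Hoxb4 stood at 5.45, 5.67 and 5.20 CPM untreated and 10.1, 5.43 and 5.18 CPM after 5-FU, a single high library (0.34 ± 0.28, adjusted p = 0.443). Hoxb3 was not called (-1.27 ± 0.77, adjusted p = 0.303), and without Tespa1-/- 5-FU library 3 it was (-2.72, adjusted p = 0.0279). This fit, too, was singled out after the values were seen. Hoxb3 passed the filter on low counts here through its untreated libraries, so the fit is not read as support. The median over the members was -0.35, beside -0.0094 over all genes. All 10 neutrophil, 8 erythroid and 5 megakaryocyte markers and 7 of 8 B cell markers tested were called higher in this comparison (B cell sum 42.2 to 48.2 untreated and 325 to 343 CPM after 5-FU), as were 4 of 10 LSK, 3 of 8 monocyte and 1 of 5 T cell markers, while 2 LSK, 1 monocyte and 1 T cell marker were lower. Their part in the Hox changes was not tested.

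**Figure D3:**
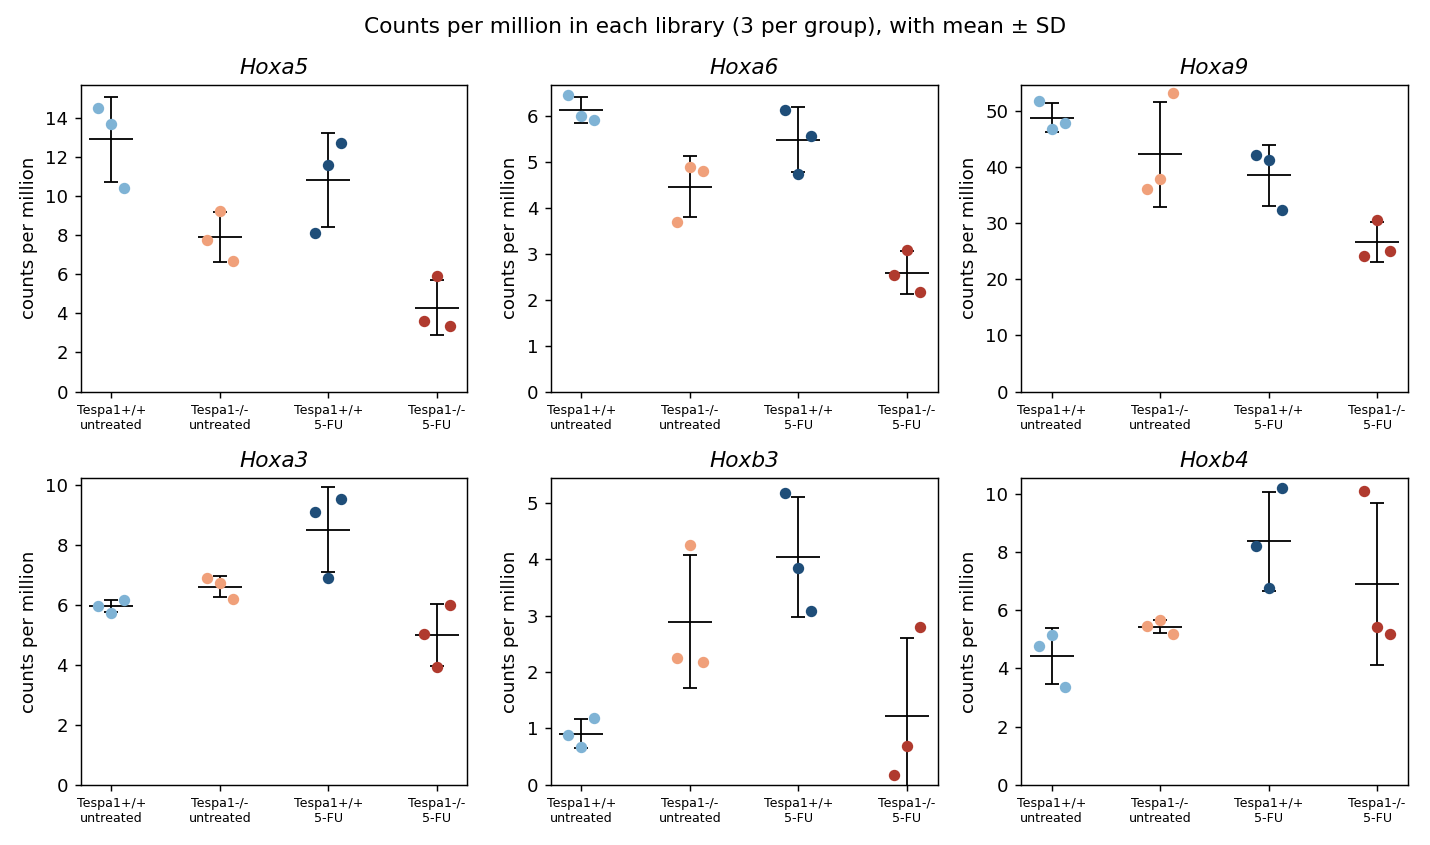
CPM of Hoxa5, Hoxa6, Hoxa9, Hoxa3, Hoxb3 and Hoxb4 in each of the 12 libraries, with horizontal bars for the group mean and whiskers for the SD (n = 3). Hoxa5, Hoxa6 and Hoxa9 are lowest in Tespa1-/- after 5-FU, and Hoxb3 is high in 1 of the 3 libraries of that group.

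Whether the 5-FU change differed between genotypes was tested by the interaction over all 12 libraries. Of 15 members tested, 0 were called (3.02% of 18696 genes had a more positive change in Tespa1-/- and 1.99% a more negative one, 5.01% in all). At an unadjusted p below 0.05 there were 2, Hoxb3 and Hoxa3, where 18.7% of all genes passed, and DESeq2 called 1 of them, Hoxb3 (8.2% of genes in either direction). For Hoxb3 the 5-FU change was 2.17 in Tespa1+/+ and -1.27 in Tespa1-/- on the log2 scale, a difference of -3.42 ± 0.96 (adjusted p = 0.0595 in edgeR, 0.00905 in DESeq2, and 0.00395 in edgeR without Tespa1-/- 5-FU library 3). The last of these fits was singled out after the values were seen and is not read as support. For Hoxa3 it was 0.53 and -0.41, a difference of -0.93 ± 0.29 (adjusted p = 0.0915). The interactions of Hoxa5 (-0.63 ± 0.36, adjusted p = 0.383), Hoxa6 (-0.62 ± 0.31, adjusted p = 0.314) and Hoxa9 (-0.34 ± 0.22, adjusted p = 0.452) did not pass, so their genotype difference was not shown to depend on 5-FU. The members Hoxb5, Hoxb6 and Hoxc9, with at most 24 counts, had libraries at 0 counts, and their estimates are not read.

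Summed over a cluster, HoxA stood at 113 ± 19.5 CPM (Tespa1+/+) and 85.1 ± 16.9 CPM (Tespa1-/-) without treatment, against 101 ± 21.4 and 66.3 ± 6.24 CPM after the drug. After 5-FU the 3 knockout libraries, at 59.6, 67.2 and 72.0 CPM, lay below the wild-type ones at 117, 110 and 76.7 CPM. Untreated, the genotypes overlapped (90.5 to 127 against 68.8 to 103 CPM). HoxB took another course, with 4.93 to 7.26 CPM (Tespa1+/+) and 8.70 to 11.4 CPM (Tespa1-/-) without treatment, against 13.2 to 17.8 and 8.40 to 11.4 CPM after the drug. The HoxB sums rose with 5-FU without overlap in Tespa1+/+ and overlapped in Tespa1-/-. These sums are given as values without a test.

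**Figure D4:**
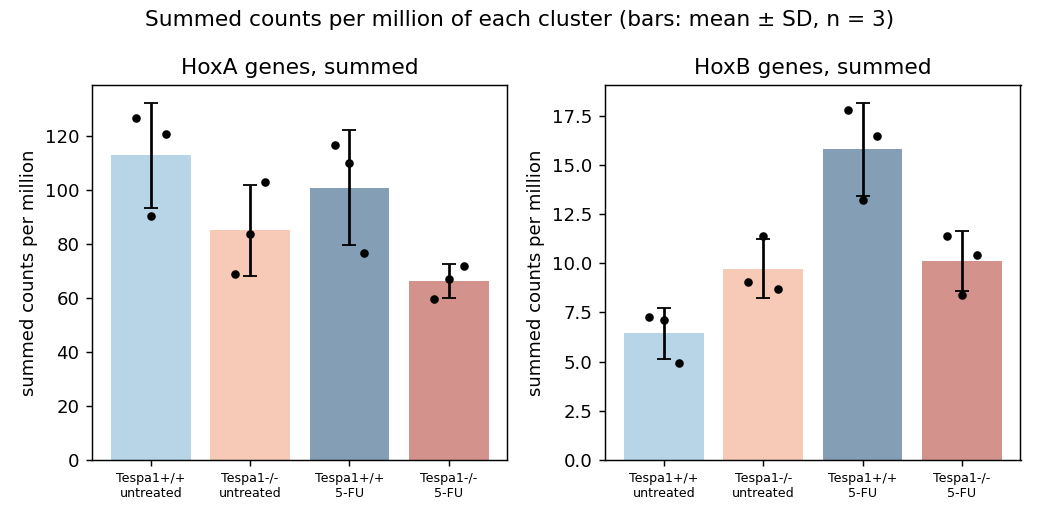
Summed CPM of the HoxA members (left) and HoxB members (right), with bars for the mean, whiskers for the SD (n = 3) and points for the libraries. HoxA is lowest in Tespa1-/- after 5-FU, and HoxB is highest in Tespa1+/+ after 5-FU.

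Other genes inside the clusters had few counts, many of them miRNA or misc_RNA genes that poly-A libraries measure poorly. Of 46 genes inside the clusters that are no members, 3 reached a mean of 1 CPM in a group: Gm28308, a protein-coding model that overlaps Hoxa2 and Hoxa3, Gm11539, a processed pseudogene, and Hoxb3os. Gm11539 stayed between 9.28 and 15.9 CPM in all libraries. Gm28308 had 53, 47 and 1 counts in untreated Tespa1+/+, 85 counts in 1 untreated Tespa1-/- library and 9 in 1 Tespa1+/+ library after 5-FU, and 0 in the others. It shares 12.7% of the 50-base stretches of Hoxa2 and, on the same strand, 8.0% of the exonic bases of Hoxa3. Reads of these genes may thus have been split. Another limit for Hoxa3 is that 25.4% of its exonic bases lie opposite exons of other genes.

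Genes that flank the clusters gave values for the ground next to them. Beside HoxA, Skap2, a signalling adaptor, stood at 93.6 to 99.1 CPM as group means and did not pass any test, and Hibadh, a valine-degrading enzyme, stood at 34.7 to 42.3 CPM. Snx10, a sorting nexin beyond Skap2, had 41.6, 60.9 and 61.2 CPM in Tespa1+/+ and 30.9, 26.5 and 39.0 CPM in Tespa1-/- after 5-FU (log2 fold change -0.76 ± 0.18, adjusted p = 0.0238, lost in 4 of 6 fits without 1 library). Evx1 had 0 counts. Beside HoxB, Skap1, a T cell adaptor, stood at 0, 0.0770 and 0.412 CPM in Tespa1+/+ and 4.21, 3.24 and 2.03 CPM in Tespa1-/- after 5-FU, and passed the filter on low counts through its Tespa1-/- libraries, so its call is not read. Snx11 stood at 7.98 to 11.3 CPM as group means, Ttll6 at 0 to 0.103 and Calcoco2 at 0. Around HoxC and HoxD, Cbx5, which encodes heterochromatin protein HP1 alpha, stood at 274 to 291 CPM, Calcoco1 at 32.3 to 43.8, Smug1 at 1.84 to 3.12, Atp5g2 at 0.539 to 1.08, Hnrnpa3 at 96.4 to 139, Lnpk at 15.1 to 19.5, Mtx2 at 13.7 to 18.4 and Evx2 at 0 to 0.0486 CPM. None of these that could be tested was called in a two-group comparison.

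TALE proteins bind DNA beside Hox proteins. Of these cofactors, 2 of 8 tested were lower and 0 higher in Tespa1-/- after 5-FU, beside 5.78% and 7.34% of all genes, and 2 of 9 were lower untreated, beside 3.59%. Meis1, the partner of Hoxa9 in self-renewal, had 183, 180 and 200 CPM in Tespa1+/+ and 129, 117 and 129 CPM in Tespa1-/- after 5-FU (-0.59 ± 0.07, adjusted p = 0.000632, kept in every fit without 1 library). Untreated, Meis1 stood at 164 ± 9.71 and 142 ± 9.41 CPM (-0.20 ± 0.07, adjusted p = 0.186). Tgif2, a repressor of the class, was lower in Tespa1-/- in both treatments, at a log2 fold change of -0.95 untreated (adjusted p = 0.0166, lost in 4 of 6 fits without 1 library) and 2.82-fold lower after 5-FU (adjusted p = 0.00235), and Tgif1 was lower untreated (-0.47, adjusted p = 0.0279, lost in 5 of 6 fits without 1 library).

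The regulators of Hox chromatin were counted by complex. Kmt2a, which encodes MLL, stood at 266 ± 47.1 CPM (Tespa1+/+) and 328 ± 9.39 CPM (Tespa1-/-) without treatment and at 359 ± 44.2 and 334 ± 5.42 CPM after the drug, and was not called (adjusted p from 0.0693 to 0.737). Men1, which encodes menin, fell after 5-FU in Tespa1-/- from 55.5 ± 4.05 to 45.1 ± 1.66 CPM (-0.30 ± 0.08, adjusted p = 0.0300, lost in 5 of 6 fits without 1 library). Of the 11 MLL and COMPASS genes, 1 was lower and 1 higher in Tespa1-/- after 5-FU, the methyltransferase Ash1l (-0.34) and the CpG-binding Cxxc1 (0.28), beside 5.78% and 7.34% of all genes, with a list median of 0.04. Both also changed with 5-FU in Tespa1-/- (-0.29 and 0.24). The calls of Cxxc1 were lost in 6 of 6 and 3 of 6 fits without 1 library, and those of Ash1l in 0. Of 10 DOT1L and elongation genes, 1 was lower in untreated Tespa1-/- and 3 after 5-FU (3.59% and 5.78% of all genes). Aff4 was lower in Tespa1-/- in untreated cells (-0.55) and after 5-FU (-0.47), where Mllt3 (-0.50) and Ccnt1 (-0.41) were lower as well. With 5-FU, Mllt3 rose (0.57) while Dot1l (-0.42) and Mllt1 (-0.32) fell in Tespa1+/+, where 3.77% of all genes were higher and 4.18% lower. In Tespa1-/-, Aff1 rose (0.35) while Ccnt1 (-0.38), Mllt1 (-0.23) and Aff4 (-0.17) fell, where 10.7% were higher and 8.64% lower. With 1 library left out, Mllt1 lost its calls in 6 of 6 fits in Tespa1+/+ and 5 of 6 in Tespa1-/-, Aff4 its 5-FU call in 6, Dot1l in 4 and Mllt3 its genotype call in 3.

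Among 26 Polycomb genes, 0 were called in untreated LSKs (5.23% of all genes were), and 2 were higher and 2 lower in Tespa1-/- after 5-FU, shares near the 7.34% and 5.78% of all genes. Jarid2, a cofactor of the PRC2 complex, stood at 81.6, 76.1 and 88.5 CPM in Tespa1+/+ and 121, 109 and 133 CPM in Tespa1-/- after 5-FU (0.56, adjusted p = 0.00364). Rbbp7 was higher as well (0.30), and Phc1 (-0.49) and Cbx6 (-0.37), of PRC1, were lower. In fits without 1 library, Cbx6 lost this call in 6 of 6, Phc1 in 5 and Rbbp7 in 2. With 5-FU, Rbbp7 fell in Tespa1+/+ (-0.46), the 1 call of 26 there (4.18% of all genes were lower). In Tespa1-/-, Cbx6 (-0.38) and Eed (-0.29) fell and Jarid2 rose (0.61), and the calls of Eed and Cbx6 were lost in 2 and 1 of 6 fits without 1 library (8.64% of all genes were lower and 10.7% higher). The list median after 5-FU was -0.16 in the comparison of genotypes.

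Retinoic acid is a classic inducer of Hox genes, and the list of its enzymes and receptors includes the caudal genes Cdx1, Cdx2 and Cdx4. Of 6 tested after 5-FU, 1 was higher and 2 lower in Tespa1-/-, beside 7.34% and 5.78% of all genes. Cyp26b1, which degrades retinoic acid, had 17, 41 and 21 counts in Tespa1+/+ after 5-FU and 0 counts in all 3 Tespa1-/- libraries, at least 7.63-fold lower against 3 counts per library. It passed the filter on low counts through its Tespa1+/+ libraries alone, so its call, one of the 2 lower, is not read as support. Aldh1a1, a retinaldehyde dehydrogenase, rose after 5-FU in both genotypes (2.84-fold in Tespa1+/+ and 7.01-fold in Tespa1-/-) and was higher in Tespa1-/- after 5-FU, at 22.9 ± 1.71 against 12.5 ± 0.383 CPM (adjusted p = 0.00327). Rara, a retinoic acid receptor, was lower in Tespa1-/- in both treatments (-0.53 and -0.60) and fell with 5-FU in both genotypes (-0.73 and -0.81), where the genotype calls were each lost in 5 of 6 fits without 1 library and the 5-FU call in Tespa1+/+ in 4 of 6 and with the replicate block. Rxrg, singled out after its values were seen, had 0 counts in untreated Tespa1+/+ and 11 to 22 in untreated Tespa1-/-, at least 4.85-fold higher.

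Genes that HOXA9 and MEIS1 are known to activate in progenitors and leukemia were also counted. In Tespa1-/- after 5-FU, 10 of 14 were called lower and 1 higher, with a list median of -0.42 beside -0.0097 over all genes and 5.78% of genes lower. Flt3, a cytokine receptor of multipotent progenitors (-0.89, adjusted p = 1.18e-05), and Msi2, an RNA-binding self-renewal factor (-0.86, adjusted p = 4.59e-06), led, and the pseudokinase gene Trib2 was higher (1.10, adjusted p = 0.0127, lost without Tespa1-/- 5-FU library 3). In untreated LSKs 5 of 14 were lower (3.59% of all genes), among them Msi2 (-0.45) and Erg (-0.40), and 2 higher (1.64% of all genes), among them Trib2 (1.12), whose call was lost in 5 of 6 fits without 1 library as that of Erg was in 2. With 5-FU, 4 of 14 were lower and 2 higher in Tespa1+/+ (4.18% and 3.77% of all genes), and 7 lower and 3 higher in Tespa1-/- (8.64% and 10.7%). Flt3 and Cd34 fell in Tespa1+/+ (-0.96 and -0.57) and in Tespa1-/- (-1.55 and -1.08), where Igf1 rose (1.46, lost in 5 of 6 fits without 1 library), and Bcl2 fell in Tespa1+/+ (-0.33, lost without Tespa1+/+ 5-FU library 3 or untreated library 1) and in Tespa1-/- (-0.88). Erg, which encodes a stem cell transcription factor, rose in both (0.31 and 0.22), each call lost in 5 of 6 fits without 1 library. Flt3 and Cd34 are also in the LSK marker list, of which 7 of 10 were lower in Tespa1-/- after 5-FU.

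**Figure D5:**
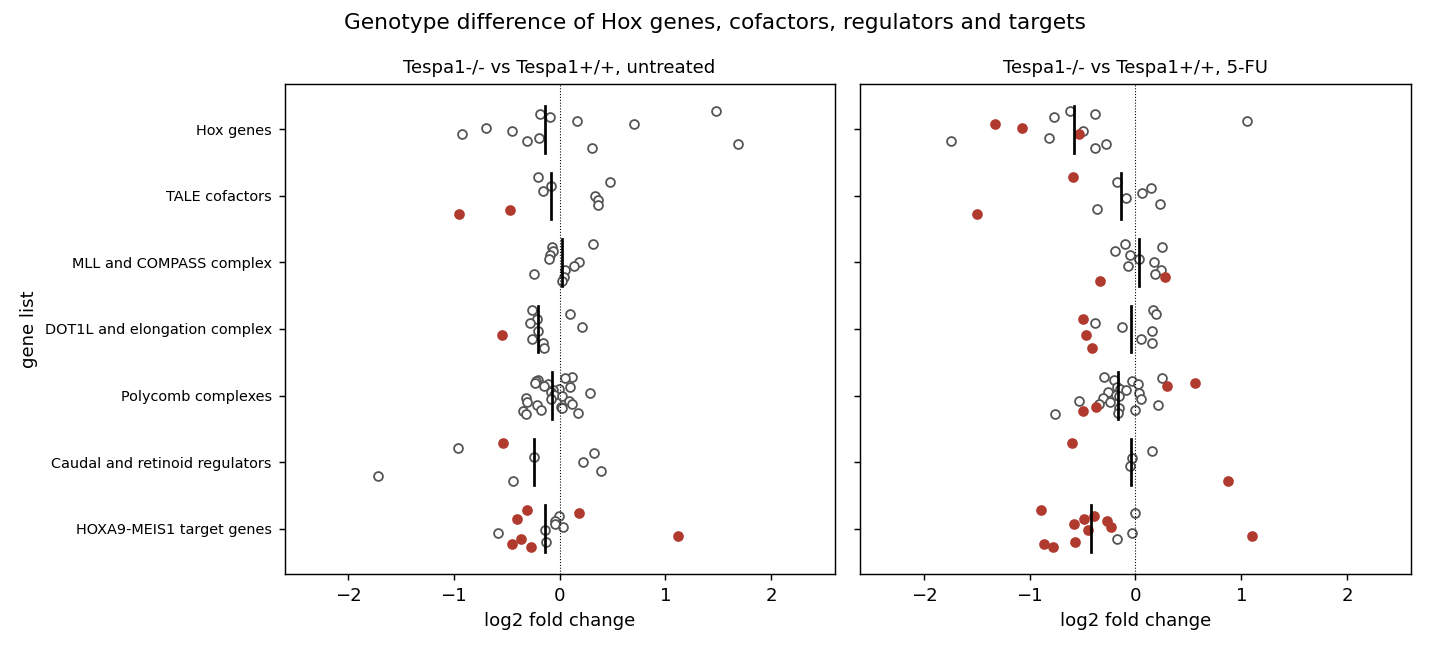
Log2 fold change of Tespa1-/- against Tespa1+/+ LSKs, untreated (left) and after 5-FU (right), for the tested Hox genes and 6 gene lists, with filled points for an adjusted p below 0.05 and a bar at each median. Rxrg (left) and Cyp26b1 (right) lie beyond the axes, each with 0 counts in 1 genotype. The HOXA9-MEIS1 targets show 10 filled points below 0 after 5-FU.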

How the data were processed

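LSKs were sorted from bone marrow, and stranded poly-A libraries were sequenced as paired ends. The submitters' processing notes name CASAVA 1.8, HISAT2, StringTie, edgeR and the build GRCm38, without their roles. The authors deposited, for each of the 12 libraries, a whole-number count per gene and an FPKM value per gene. How reads were counted, and whether strand was used, is not given in the sources used here. If StringTie gave the counts, they are estimates rounded to whole numbers.

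Counts were tested with edgeR 4.0.16 in R 4.3.3 (quasi-likelihood fit, filterByExpr with a minimum count of 10, TMM, Benjamini-Hochberg adjustment over all genes tested), with 6 libraries for each comparison of 2 groups and 12 for the interaction. A gene was called at an adjusted p below 0.05. CPM used library totals times TMM factors (0.97 to 1.03). The p-values are two-sided. FPKM served only to compare levels between genes. DESeq2 1.42.0, other normalizations and filters, the thresholds of the study, a replicate block and leaving out each library were the alternatives. The fits were tested on simulated data. Counting limits cover counting error only.

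Members, lists and tests were chosen with earlier results of these data known. Values in every library were given for Hoxa9, Hoxb4 and each called member with a mean of at least 1 CPM in a group, and for other members described beside them after their values were seen. Of the other lists, Meis1, Kmt2a and Men1 and up to 3 called genes with the largest changes per list and comparison were named, and further genes after their values were seen. 2 genes are not reported here. Promoters came from RefSeq (GRCm38.p6), homeoboxes from GENCODE M21, which held 39 of the 39 members. Same-numbered replicates did not deviate together (correlations from -0.076 to 0.027).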

Additional observations from a re-analysis of the deposited data

Results flagged for a closer look

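Differences between the genotypes' 5-FU changes are given as the interaction on the log2 scale, Tespa1-/- minus Tespa1+/+, from edgeR. Among the Hox genes, Hoxb3 differed between the genotypes in opposite directions in every library of the untreated and 5-FU settings (-3.42, adjusted p = 0.0595), and Hoxa3 did so for both the genotype difference and the 5-FU change (-0.931, adjusted p = 0.0915). Neither interaction passed the test. Exons of Hoxa3 overlap those of Gm28308 and of genes on the other strand, and the part of this in its values was not tested. Outside the Hox genes, it passed for Tespa1 (-1.05), for 6 of 14 HOXA9-MEIS1 targets, Flt3 (-0.586), Bcl2 (-0.536), Cd34 (-0.504), Msi2 (-0.406), Sox4 (-0.39) and Cdk6 (-0.26), beside 1.99% of all genes with a more negative change in Tespa1-/-, and for the chromatin regulators Jarid2 (0.799), Aff1 (0.359) and Ash1l (-0.359). In the same test 3 of 10 LSK markers, Flt3 and Cd34 among them, were more negative, and 5 of 10 neutrophil, 4 of 8 erythroid, 3 of 8 B cell and 1 of 8 monocyte markers more positive, where 3.02% of all genes were, and their part was not tested. The interaction also passed for Aldh1a1 (1.32, lost without Tespa1-/- 5-FU library 3 or Tespa1+/+ 5-FU library 1) and for Snx10, which flanks HoxA (-1.18, adjusted p = 0.0295, lost in 8 of 12 fits without 1 library). For Cyp26b1 the fitted value of -5.94 depends on the prior count, since Tespa1-/- LSKs after 5-FU had 0 counts. It was lost in 10 of 12 fits without 1 library.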

How the results depend on the processing

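Of 1549 alternative values for 113 single-gene results under 19 settings, 1324 kept their direction and side of the threshold, 209 lost a call, 14 gained one and 2 reversed. The reversed values were uncalled: the log2 fold change of Hoxb2 between the genotypes, untreated, ran from -0.773 to 0.00142 over fits without 1 library (positive without Tespa1-/- untreated library 3), and that of Hoxb4 with 5-FU in Tespa1-/- from -0.0386 to 0.514 (negative without Tespa1-/- 5-FU library 1). For the genotypes untreated, the members called were 1 higher and 1 lower at the study's thresholds (3.54% and 3.2% of all genes), 1 and 1 with DESeq2 (3.1% and 5.27%), and 1 higher with at least 10 counts in every library (1.99%). After 5-FU, 4 were lower at the study's thresholds, Hoxa3, Hoxa5, Hoxa6 and Hoxb3 (5.94% of all genes), while Hoxa9 fell short of the fold change of 1.5. With an adjusted p below 0.05 and that fold change, 2 were lower (3.03%). There were 4 lower with all 12 libraries in one fit (Hoxa3 added, 6.77%) and 1, Hoxa5, with no filter (2.48%). For 5-FU in Tespa1+/+, 3 were higher at the study's thresholds (6.33% of all genes), 3 with DESeq2 (5.9%) and 2 with all 12 libraries in one fit (Hoxb2 and Hoxb4, without Hoxb3, 5.51%). In Tespa1-/-, 1 was higher and 3 lower at the study's thresholds (7.78% and 6.58% of all genes), 3 lower with all 12 libraries in one fit (Hoxa6 added, adjusted p = 0.0333, 6.91%), and 1 lower, Hoxa9, with no filter (3.58%). In both genotypes Hoxb2 was among those higher with 5-FU at the study's thresholds. It entered these fits of 2 groups through its 5-FU libraries, so it is not read. For the interaction, 2 of 15 were lower at the study's thresholds (6.22% of all genes, 10.4% either way), 1 with DESeq2 (3.56%) and 1 with no filter (0.838%). Leaving out 1 library gave 0 to 2 lower for the genotypes after 5-FU, 0 to 1 higher for 5-FU in Tespa1+/+, 0 to 2 lower in Tespa1-/- and 0 to 1 lower for the interaction. The cause of these changes was not tested. With the replicate block, which rests on shared numbers only, 1 member, Hoxa5, was lower after 5-FU, 1 higher with 5-FU in Tespa1+/+, 2 lower in Tespa1-/- and 0 called in the other comparisons. At 3 counts, 0.109 to 0.136 CPM, depth limits what can be said of most HoxC and HoxD genes.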
